A study of Caenorhabditis elegans with 2 samples.

Results

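LET-607 single-gene promoter peaks are the LET-607 binding sites whose summit lay within reach of the 5′ end of 1 protein-coding gene and of no other, so that each can be read against a single named gene. Reach was from 1000 bp upstream to 200 bp downstream of the 5′ end of the gene model (Ensembl, WBcel235, which has the coordinates of ce11), and summits within 100 bp of a tRNA gene were left out. Of the 2372 peaks that passed the authors' reproducibility threshold between replicates (the IDR list), 2349 were on nuclear chromosomes, and 819 of these met the rule (34.9%, exact 95% interval 32.9 to 36.8). The other nuclear peaks were 353 with several genes in reach, 965 outside all promoter windows and 212 at tRNA genes, which included 40 summits with a single gene in reach. The 819 peaks belonged to 791 genes. These are 3.96% of the 19973 nuclear protein-coding genes, and among the 13233 genes with a window free of overlap with any other the share was 4.75%.

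The animals were whole young adult hermaphrodites of the transgenic Caenorhabditis elegans strain YL529, which stably expresses LET-607 with GFP and FLAG tags at its C-terminus. They were collected 67 h after synchronization as L1 larvae starved after bleaching. Chromatin was sheared by sonication and immunoprecipitated with an antibody against GFP, which sees only the tagged protein, and the antibody field of the labels names let-607 itself. There was 1 group of 2 biological replicates and no control group was analysed here. Signal from whole animals does not tell in which tissue a site was bound, and the depth is unknown because no read counts were used. The signal of a peak is the authors' own value from the data pooled over both replicates, with no stated scale.

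LET-607 is a bZIP transcription factor related to the CREB3 family of mammals. Proteins of that family are made as membrane proteins of the endoplasmic reticulum (ER), travel to the Golgi when released from the ER, and are cut there so that the DNA-binding part can enter the nucleus. In mammals they are known for raising genes of the secretory pathway, the route by which new proteins enter the ER, are folded and glycosylated, and leave in COPII-coated vesicles, with COPI-coated vesicles returning ER proteins. CREB-type bZIP proteins recognise DNA with the core TGACGT, the centre of the cyclic AMP response element (CRE).

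The sequence within 50 bp of the summit is shown for 8 of the strongest single-gene promoter peaks. These windows carry TGACGT or GACGCA, which were more frequent at the summits than in the sequence to either side. Each is 101 bases of the RefSeq sequence of WBcel235, read 5′ to 3′ on the strand of the gene. Capitals mark TGACGT, the overlapping GACGTG and the string GACGCA, on either strand. Of the 20 strongest peaks, 7 held TGACGT, and the first 6 windows are those of these 7 that could be shown. The last 2 hold GACGCA without TGACGT. The windows lie at chrX:15841230-15841330, plus strand for serp-1.1; chrIII:4193703-4193803, plus strand for xbp-1; chrV:6100769-6100869, minus strand for crt-1. Those of cdc-48.1, sar-1 and Y25C1A.8 lie at chrII:10563510-10563610, minus strand, at chrIV:4513597-4513697, minus strand and at chrII:3077081-3077181, minus strand. The window of hsp-3 lies at chrX:6092125-6092225, minus strand, and that of sec-24.1 at chrIV:11566280-11566380, minus strand. All 8 summits lay between protein-coding genes.
serp-1.1: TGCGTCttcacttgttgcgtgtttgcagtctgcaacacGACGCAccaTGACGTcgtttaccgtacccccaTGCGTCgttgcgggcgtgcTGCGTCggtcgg
xbp-1: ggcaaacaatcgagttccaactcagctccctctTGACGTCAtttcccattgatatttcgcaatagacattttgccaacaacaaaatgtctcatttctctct
crt-1: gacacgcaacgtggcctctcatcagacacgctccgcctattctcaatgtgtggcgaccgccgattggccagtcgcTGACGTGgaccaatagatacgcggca
cdc-48.1: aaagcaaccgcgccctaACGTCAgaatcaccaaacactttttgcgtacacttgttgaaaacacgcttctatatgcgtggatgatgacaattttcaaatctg
sar-1: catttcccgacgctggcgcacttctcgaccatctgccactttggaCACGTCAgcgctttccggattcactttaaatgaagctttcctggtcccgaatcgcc
Y25C1A.8: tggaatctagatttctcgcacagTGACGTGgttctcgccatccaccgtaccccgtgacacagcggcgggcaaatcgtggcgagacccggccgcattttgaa
hsp-3: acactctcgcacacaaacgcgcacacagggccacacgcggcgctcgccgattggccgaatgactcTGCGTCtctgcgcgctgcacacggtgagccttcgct
sec-24.1: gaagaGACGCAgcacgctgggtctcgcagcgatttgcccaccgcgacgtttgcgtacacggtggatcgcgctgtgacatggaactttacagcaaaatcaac

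The strongest single-gene promoter peaks stood at genes of the ER. The peak of highest signal, 8807, had its summit 292 bp upstream of serp-1.1, which RefSeq names a stress-associated ER protein, and was the second strongest nuclear peak. Its signal was 4491 in replicate 1 and 4331 in replicate 2. The next was the peak of hsp-3, one of the BiP genes (the ER's Hsp70 chaperone), with a signal of 5058, 2679 in replicate 1 and 2398 in replicate 2. The summit of that peak lay 51 bp upstream of the 5′ end. The peak of trap-1, a subunit of the translocon-associated protein complex at the ER channel, had 4643, and that of calu-1, a calcium-binding protein of the secretory pathway, had 2799. Both replicates held each of these peaks at closely similar signal, with 2417 and 2238 at trap-1 and 1493 and 1309 at calu-1.

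Genes of other steps of the same pathway followed. The peak of xbp-1, the bZIP factor of the unfolded protein response, had a signal of 2676 with its summit 56 bp upstream. That of crt-1 (calreticulin, a lectin chaperone of the ER) had 1593, that of mans-3 (an alpha-mannosidase, which trims N-glycans) 1549 and that of sec-24.1 (a cargo-binding subunit of the COPII coat) 1515. Lower in the first 20 came cyn-5, a cyclophilin, with 1405, cdc-48.1, an ATPase that draws misfolded ER proteins to degradation, with 1284, and sar-1, the GTPase that starts COPII coat assembly, with 1237. F38A1.8, with 1328, carries a GTP-binding domain of the SRP54 type and T14G8.3, with 1095, is annotated as hypoxia up-regulated protein 1, a name that in mammals belongs to an ER chaperone. Genes outside the pathway were also among the 20. They were rps-18 and rpl-3 of the ribosome, mog-4, a splicing helicase, puf-9, an RNA-binding protein of the Pumilio type, cgp-1, a GTP-binding protein, the phosphatase gene C24F3.2 and Y25C1A.8, a zinc finger gene.

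Some of these summits also lay near a gene outside the window. The summit assigned to rps-18, with a signal of 4933, lay 673 bp upstream of that gene and inside a noncoding exon of sec-61.A, the gene of the channel protein itself, 258 bp downstream of its 5′ end and so just past the window. The summit assigned to cyn-5 lay inside a noncoding exon of bltp-2. The summit at C24F3.2, with 2049, lay 128 bp upstream of it and 1124 bp upstream of tram-1, a gene of the channel. Of all 819 summits, 50 (6.11%) lay within 200 bp beyond the window of a further gene. At the edges of the window, the outermost summits inside were those of pfd-1, 996 bp upstream, and picc-1, 189 bp downstream. Among peaks outside all promoter windows, the summits nearest to an edge were those at dip-2, 1006 bp upstream, and hrpk-1, 203 bp downstream. In the order given, the signals were 116, 80.8, 95.6 and 162. The weakest of the 819 peaks was that of cept-1, a phospholipid synthesis gene, with 78.2.

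Signal fell steeply from these sites. Its median over the 819 peaks was 124, with quartiles of 94.9 and 186, against a median of 136 for the 353 multi-gene promoter peaks and 120 for the 965 peaks outside promoter windows. Of the 819, 219 (26.7%) were among the strongest 25% of all nuclear IDR peaks, against 33.99% of multi-gene promoter peaks, an odds ratio of 0.709 that did not pass (adjusted p = 0.0511 over 11 comparisons, two-sided Fisher's exact tests). That comparison passed under 5 of the other settings tried, with odds ratios from 0.641 to 0.706.

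Both replicates held most of these sites. Of the 819 peaks, 816 met a relaxed peak in both replicates; spas-1 and oga-1 lacked one in replicate 1 and klf-1 in replicate 2, named for being the exceptions. A stricter measure asked for overlap with the top 2372 peaks of replicate 1 and also of replicate 2, which 598 (73.0%, 69.8 to 76.0) had. In 4 groups of about equal size by signal, strongest first, the share was 100% of 205, 98.0% of 205, 69.6% of 204 and 24.4% of 205. Peaks enter the IDR list for their reproducibility and were pooled over these replicates, and all lists were limited to the same number of peaks, so that fall is partly built into the measure. Spearman's rho of the replicates' signals was 0.720 over the 816 peaks, given as a description of peaks that share their 2 libraries. Multi-gene promoter peaks had 75.6% and peaks outside promoter windows 71.6% in both (odds ratios 0.872 and 1.07, adjusted p = 0.471 and 0.525, Fisher's exact test).

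**Figure D1:**
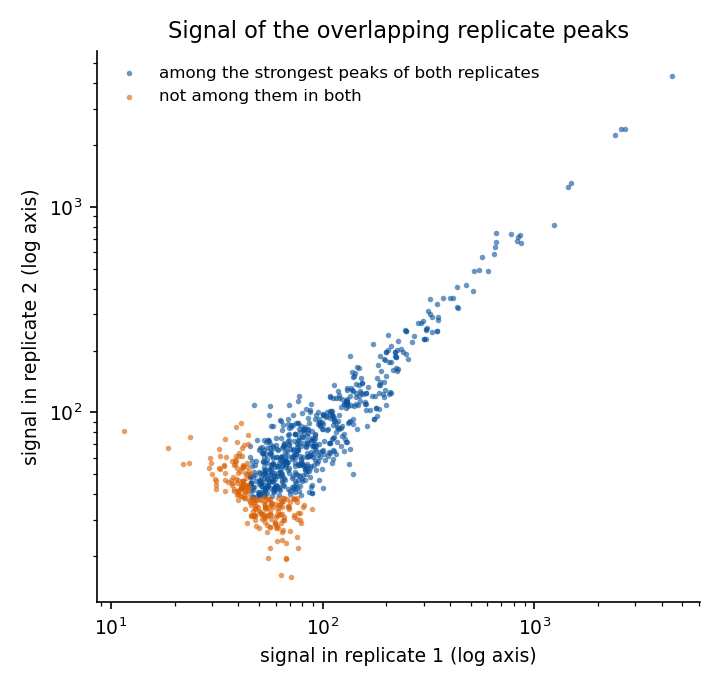
Signal of the overlapping peak in replicate 1 against replicate 2, on log axes, for the 816 single-gene promoter peaks found in both; each point is 1 peak. Blue points are the 598 among the 2372 strongest peaks of both replicates, and the strongest peaks lie close to one line while the weakest spread widely.

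Within the window set by the rule, summits gathered shortly upstream of the gene. The median summit lay 235 bp upstream of the 5′ end, with quartiles 436.5 and 99.5 bp upstream. The window bounds these positions, and the median was 170 bp upstream with a window of 500 bp and 356 bp upstream with one of 2000 bp. Of the 819, 287 (35.0%, 31.8 to 38.4) lay within 200 bp upstream, 174 (21.2%) more than 500 bp upstream and 77 (9.40%) downstream. The median moved little with signal, from 255 bp upstream in the strongest of the 4 groups to 215 bp in the weakest. Messages of many C. elegans genes are trans-spliced, so an annotated 5′ end can lie downstream of the start of transcription, and these distances refer to the annotation. By annotation, 671 summits (81.9%) lay between protein-coding genes, 37 in a noncoding exon, 22 in a coding exon and 18 in an intron of their own gene, and 30 and 41 in an exon or intron of another gene. The 28 genes with 2 such peaks had their summits 199 to 934 bp apart, with a median of 202 bp, and no gene had more.

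**Figure D2:**
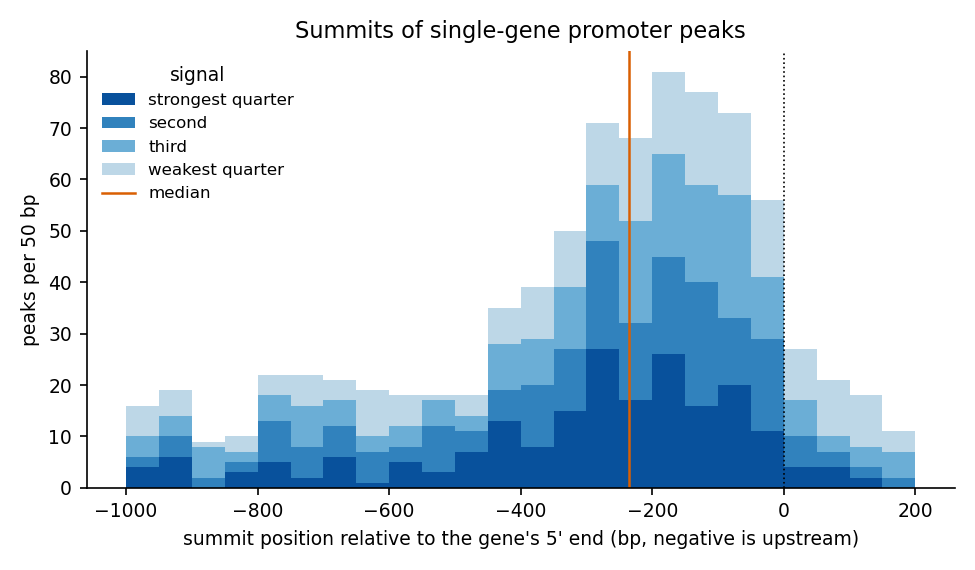
Position of the 819 summits relative to the 5′ end of their gene, in 50 bp bins; the colours are 4 groups of the peaks by signal and the orange line is the median, 235 bp upstream. Each group has most of its summits within about the same stretch upstream of the 5′ end.

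Chromosome X carried the most of these sites, 180 of the 819 (21.98%) or 10.2 per Mb, followed by III with 9.87 per Mb, I with 8.23, II with 7.98, IV with 7.49 and V with 6.02. Multi-gene promoter peaks were rarely on X, at 15 of 353 (4.25%), and the odds ratio between the classes was 6.35 (adjusted p = 3.55e-15, two-sided Fisher's exact test). The rule itself bears on that difference through the spacing of genes, as X held 15.5% of the sequence inside exactly 1 promoter window but 6.65% of the sequence inside several. Against peaks outside promoter windows, of which 23.4% were on X, the odds ratio was 0.921 and did not pass (adjusted p = 0.525, Fisher's exact test). Per Mb of sequence inside them, windows of exactly 1 gene held 42.8 peaks, overlapping windows 149 and the rest of the nuclear genome 12.3.

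The CRE core stood at about the centre of a minority of the sites. TGACGT was within 50 bp of the summit on either strand at 86 of the 819 peaks (10.5%, 8.49 to 12.8), as in the windows of serp-1.1, xbp-1 and crt-1 above. Windows of the same length, centred 300 bp away on each side, held it in 2.81% and 4.15% of cases, a mean of 3.48% and a ratio of 3.02 (two-sided exact binomial test of discordant peaks, larger p of both flanks, adjusted p = 2.56e-06 over 13 sequences). Windows centred 235 bp upstream of all 19973 genes held it in 3.31% of cases. The 86 peaks had TGACGT a median of 18 bp from the summit, 57 of them within 25 bp. It read along the gene at 38 peaks, against it at 36 and both ways at 12. Stronger peaks held it more often, at 36 of 205 (17.6%, 12.6 to 23.5) in the strongest of the 4 groups, 19 of 205 and 19 of 204 in the middle groups and 12 of 205 (5.85%, 3.06 to 10%) in the weakest. Peaks are not replicates of an experiment, so this and the tests that follow describe the peak list and not the spread between animals.

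Forms of the CRE that share its letters were also more frequent. The longer TGACGTGG, a form described for ER stress factors and seen in the window of crt-1, stood at 18 summits (2.198%) against 0.122% of flanks (adjusted p = 0.000747, exact binomial test). GACGTG, which overlaps it, stood at 9.40% against 2.198% (adjusted p = 3.88e-09), and CCACGT, which overlaps it on the other strand, at 11.6% against 3.05% (adjusted p = 9.68e-10, both exact binomial tests). The full palindrome TGACGTCA, as at xbp-1, stood at 10 summits (1.22%) against 0.488% and did not pass (adjusted p = 0.327, exact binomial test). Of the 99 occurrences of TGACGT, 20 were followed by CA, 20 by GT and 18 by GG.

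Strings of other factors moved in both directions. The E-box CACGTG of bHLH proteins, which can overlap CCACGT, stood at 7.57% of summits against 1.95% of flanks (adjusted p = 3.93e-07), and the GA repeat GAGAGA at 19.2% against 6.96% (adjusted p = 4.31e-13, exact binomial tests). The GC box CCGCCC was higher as well, at 4.88% against 1.83% (adjusted p = 0.00385), and so was TGATAA, read by GATA factors, at 15.02% against 9.77% (adjusted p = 0.00691, exact binomial tests). TATAAA was lower, at 6.72% against 12.1% (adjusted p = 0.00113), and so was the run TTTTTT, at 24.8% against 40.2% (adjusted p = 1.77e-09, exact binomial tests). Within 25 bp of summits neither TGATAA (adjusted p = 0.0909) nor TATAAA (adjusted p = 0.217, exact binomial tests) passed. Among the stronger peaks of the IDR list TGATAA did not pass either (adjusted p = 0.475, exact binomial test). The forkhead-type string GTAAACA, at 1.95% against 1.89%, did not pass (adjusted p = 1, exact binomial test). The string TGCAGT, the core in reversed order and a control, was at 6.59% against 3.91% (ratio 1.69) and did not pass (adjusted p = 0.129), but did with flanks centred 500 bp away (adjusted p = 0.00921) or a window of 500 bp upstream (adjusted p = 0.0467, exact binomial tests). Summit windows had 44.4% G or C against 35.6% and 35.1% in the flanks, and the part of this difference in the results for single strings was not tested.

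**Figure D3:**
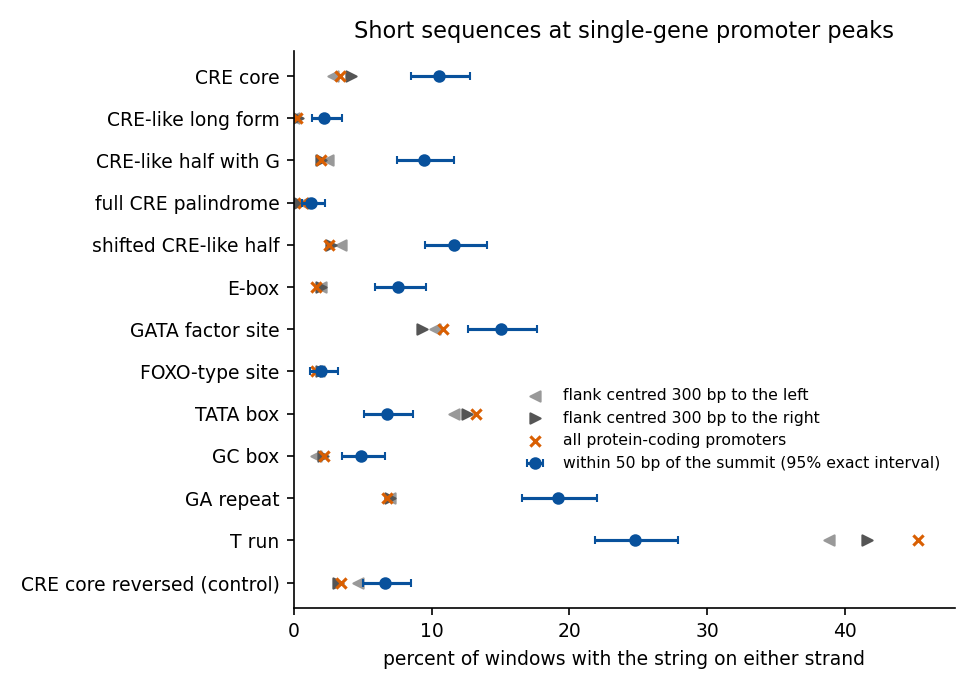
Percent of 101-bp windows with each of the 13 sequences on either strand, at the 819 summits (blue, with exact 95% intervals), in the flanks on either side (grey) and at all protein-coding promoters (orange). The CRE core stands at 10.5% against a mean of 3.48% in the flanks, and the reversed control at 6.59% against 3.91%.

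The 6-mers that stood out most at these summits were not those of the CRE core. Over all 2080 6-mers with reverse complements merged, 241 (11.6%) were higher at the summits and 138 (6.63%) lower (exact binomial tests, adjusted p under 0.05 over all 6-mers). The lowest p belonged to ACGCAG, at 116 summits (14.2%) against 1.40% of flanks (adjusted p = 3.49e-20), and the second to GACGCA, at 120 summits (14.7%, 12.3 to 17.3) against 1.71% (adjusted p = 8.89e-20, exact binomial tests). CGTCTC, at 15.6% against 2.69%, and CGCAGA, at 12.8% against 2.198%, came next. The first 10 also held AGAGAC (ratio 3.79), AGAGAG (3.38), GAGAGA (2.75), ACGCGC (6.2), AACGCG (5.8) and AGACGC (4.83). The 5 leading strings that were lower held at most 1 G or C: AAAAAT (ratio 0.551), AAAATT (0.513), TGAAAA (0.471), ATTTTC (0.499) and AAAATA (0.479). Of the 720 6-mers with 4 or more G or C, 182 were higher and 0 lower, and of the 36 with none, 0 were higher and 33 lower, so that direction followed base composition in these classes. The median ratio was 1.51 among 6-mers with 4 G or C, the class of GACGCA, which had 8.57.

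The leading 6-mers overlap into 1 longer string. Of the 143 occurrences of GACGCA within 50 bp of the summits, 63 were preceded by GA, 65 were followed by GA and 50 had both, which gives GAGACGCAGA, a string chosen after its values were seen. It stood at 48 of the 819 summits (5.86%, 4.35 to 7.70) and in 0 of the 1638 flanking windows, which allows a share of up to 0.183%, and in 0.521% of all promoter windows. It was also present at 13 of 353 multi-gene promoter peaks (3.68%, against 0.142% of their flanks) and at 37 of 965 peaks outside promoter windows (3.83%, against 0.311%), so it was not confined to single-gene promoters. GACGCA alone was at 14.7% of single-gene and 15.9% of multi-gene promoter peaks (56 of 353, against 1.70% of their flanks). Outside promoter windows it was at 86 of 965 peaks (8.91%, against 1.76%), and these differences between classes were not tested. The strongest peaks with the longer string were those of hsp-3, where it is read on the other strand around the capitals above, and of C03H12.1, a thioredoxin domain gene, with a signal of 385. Others were at gmeb-1 (383), Y25C1A.7, a Yip1 domain gene (342), and sft-4, a homologue of the cargo receptor gene surfeit locus 4 (331). The summit assigned to Y25C1A.7 lay inside a coding exon of Y25C1A.8. Genes of bZIP factors among the 48 were cebp-1, zip-11 and crh-1. Apart from hsp-3, cebp-1 and zip-11, the genes named here for the longer string were chosen after their values were seen.

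Few peaks held both GACGCA and TGACGT, as each string was at a minority of the peaks. Both strings were at 13 of the 819 peaks, among them serp-1.1, and 193 peaks (23.6%, 20.7 to 26.6) held at least one. GACGCA was thus at 13 of the 86 peaks with TGACGT, beside 120 of all 819 (14.7%). Whether the strings avoid or accompany each other was not tested. GACGCA lay a median of 17.5 bp from the summit, and 80 of its 120 peaks had it within 25 bp. Its share in the 4 groups by signal was 20% in the strongest, 12.2%, 9.31% and 17.1% in the weakest, so its lowest share was in the third group, while that of TGACGT was in the weakest. Peaks with TGACGT had a median signal of 162, and peaks with GACGCA one of 134. In windows of 51 bp centred every 50 bp, TGACGT reached 6.59% of peaks and GACGCA 9.04% at the summit, and at 200 bp and beyond on either side they stayed between 0.733% and 2.198% and between 0.488% and 1.83%.

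**Figure D4:**
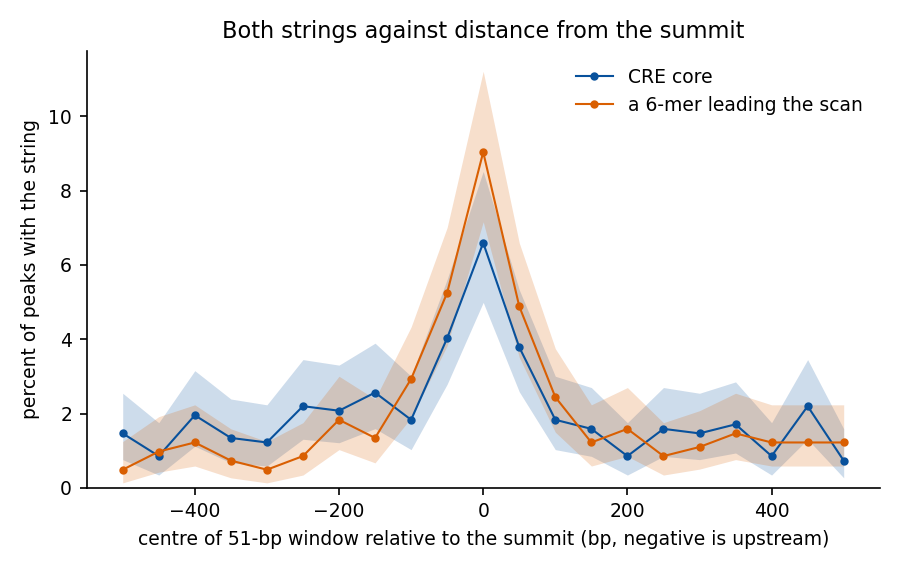
Percent of the 819 peaks with TGACGT (blue) and GACGCA (orange) on either strand in 51-bp windows centred up to 500 bp from the summit, negative being upstream along the gene; shading is the exact 95% interval. Both reach their highest share at the summit, 6.59% and 9.04%, and fall to their outer level within about 200 bp.

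Against the other peaks of the list, 3 of 4 comparisons of CRE-like strings did not pass. TGACGT was at 7.65% of multi-gene promoter peaks and at 8.29% of peaks outside promoter windows, against 10.5% (odds ratios 1.42 and 1.30, adjusted p = 0.317 each, two-sided Fisher's exact test over 11 comparisons). GACGTG was at 6.80% of multi-gene promoter peaks (odds ratio 1.42, adjusted p = 0.317) and at 6.01% of peaks outside windows, against 9.40% (odds ratio 1.62, adjusted p = 0.0494, Fisher's exact tests). By the same exact test it did not pass without replicate 1 (odds ratio 1.54, adjusted p = 0.0578), without replicate 2 (1.42, adjusted p = 0.183) or under 3 further settings. With the window of 2000 bp the odds ratios against multi-gene promoter peaks turned to 0.891 for TGACGT and 0.757 for GACGTG, and neither passed. Summits in an exon of a gene in reach were 7.20% of single-gene and 9.35% of multi-gene promoter peaks (odds ratio 0.753, adjusted p = 0.325, Fisher's exact test).

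Genes of ER folding and of transport between ER and Golgi had such a peak at higher shares than genes in general. Of the 29 genes for ER folding and quality control, 14 (48.3%, 29.4 to 67.5) had one, against 3.96% of all nuclear protein-coding genes, and of the 41 genes for COPI, COPII and ER-Golgi transport, 17 (41.5%, 26.3 to 57.9). Among genes with a window free of overlap the counts were 12 of 19 and 10 of 16, against 4.75%. A window of 2000 bp, which makes more summits shared, left 9 transport genes. Of the 34 N-glycosylation genes it was 4 (11.8%, 3.30 to 27.5), and of the 21 genes for ER translocation and signal peptide processing 1, trap-1 (4.76%, 0.120 to 23.8), intervals that both hold the share of all genes. These counts are descriptions without a test, as the lists were chosen with earlier results of the same data known. In the order given, the 4 lists held 30, 43, 36 and 28 names, of which 29, 41, 34 and 21 genes were found in the annotation. The translocation list did not hold serp-1.1, F38A1.8 or F21D5.7, and the summit inside the exon of sec-61.A was counted for rps-18. Its share therefore covers only part of the genes of that step. In all, 36 of the 125 genes on these 4 lists had a single-gene promoter peak, and 33 more had only a peak shared with a neighbour, among them 10 of the translocation genes. The 36 took 8 of the 20, 13 of the 50 and 18 of the 100 highest places by signal.

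The ER folding genes with such a peak covered chaperones, enzymes and regulators. After hsp-3, calu-1, xbp-1 and crt-1 came pdi-2 and pdi-6, which encode protein disulfide isomerases, with signals of 565 and 503, and manf-1, a secreted ER stress protein, with 267. All 3 sensors of the unfolded protein response were included, pek-1 with 265, atf-6 with 123 and ire-1 with 99.3. The BiP gene hsp-4 had 164, far below its paralogue hsp-3. TGACGT was at 6 of the 14 summits, those of xbp-1, crt-1, pdi-6, manf-1, dnj-7 and hsp-4. Apart from the first 4 and atf-6, these genes were chosen after their values were seen.

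Among the transport genes, sec-24.1 and sar-1 were followed by erd-2.1, the receptor that returns ER-resident proteins, with 748, and tmed-3, a p24 cargo receptor, with 640. The remaining 13 had signals from 577 at ile-1, a lectin cargo receptor, down to 83.0 at npp-20, the SEC13 gene. They included the COPI coat genes copb-2 (437), copd-1 (326), copg-1 (253) and cope-1 (141), and, of the COPII coat, sec-31 (98.4). These and the genes named at either end of the range were chosen after their values were seen. Of the 17 summits, 7 held TGACGT. The N-glycosylation genes were mans-3, ostd-1 and ostb-1, subunits of oligosaccharyltransferase, with 185 and 146, and aagr-2, a glucosidase-type gene, with 147.

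Peaks at these secretory genes held the CRE core at a higher share than the rest, a description without a test. TGACGT was at 14 of the 36 (38.9%, 23.1 to 56.5) and at 72 of the other 783 (9.20%, 7.26 to 11.4). The secretory peaks were also stronger, with a median signal of 298 against 121 and 24 of 36 in the strongest of the 4 groups. Within that group the shares were 8 of 24 (33.3%, 15.6 to 55.3) and 28 of 181 (15.5%, 10.5 to 21.6), whose intervals overlap. GACGCA differed less, at 7 of 36 (19.4%, 8.19 to 36.0) and 113 of 783 (14.4%, 12.04 to 17.1).

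Further strong peaks stood at genes with a secretory name that none of the lists held, all chosen after their values were seen. F21D5.7, annotated as the 54 kDa protein of the signal recognition particle, had a signal of 834, eas-1, a putative Golgi transport protein, 768, and nucb-1, a nucleobindin-type gene, 571. ZC506.1, annotated as an alpha-mannosidase, had 557, ergi-3, a protein of the compartment between ER and Golgi, 416, and Y42H9AR.1, which carries a GRASP-type domain, 394. As for every member by the rule, the 6 summits had no other gene in reach. The windows of eas-1 and nucb-1 held TGACGT.

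Genes of protein synthesis differed by list, against 3.96% of all genes. Of the 82 cytosolic ribosomal protein genes, 14 (17.1%, 9.66 to 26.98) had a single-gene promoter peak, and 32 more had only a shared one. After rps-18 and rpl-3 came rpl-35 with a signal of 760 and rps-4 with 286, and the other 10 ranged from 225 to 82.6. Among ribosomal genes with a window free of overlap the count was 9 of 21. No summit of the 14 held TGACGT. Of the 43 translation factor genes 8 (18.6%, 8.39 to 33.4) had one, led by eif-3.C (296), eif-3.B (245), pab-2, a poly(A)-binding protein gene (242), and eef-1B.2 (189). Aminoacyl-tRNA synthetases had 2 of 32 (6.25%, 0.766 to 20.8), lars-1 (349) and yars-2 (86.1), an interval that holds the share of all genes.

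Other housekeeping lists had wide intervals, some of which held the 3.96% of all genes. The respiratory chain had 6 of 46 genes (13.0%, 4.94 to 26.3), led by cox-5A (495), cox-5B (278), ucr-2.2 (265) and cox-6A (142). Lipid synthesis had 10 of 75 (13.3%, 6.58 to 23.2), led by acs-4, an acyl-CoA synthetase gene (620), cept-2 (208), acl-1 (186) and nhr-49 (164). Autophagy had 4 of 32 (12.5%, 3.51 to 28.99), lgg-2 (260), epg-7 (196), lgg-1 (167) and epg-8 (112), and the vacuolar ATPase and lysosome list 6 of 55 (10.9%, 4.11 to 22.2), led by vha-12 (214), vha-13 (183), cpr-4 (133) and asp-1 (101). The vha-13 summit lay 582 bp upstream of that gene, inside a noncoding exon of cept-2. The proteasome had 2 of 31 (6.45%, 0.791 to 21.4), rpn-11 (317) and pas-5 (83.9), and chaperones outside the ER 1 of 33 (3.03%, 0.0767 to 15.8), hsp-1 (322). The autophagy, proteasome and chaperone intervals held the share of all genes. For the proteasome and these chaperones, 8 and 9 further genes had only a shared peak.

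Transcription factor genes differed by class. Of the 29 bZIP genes, 6 (20.7%, 7.99 to 39.7) had a single-gene promoter peak, and xbp-1 was followed by cebp-1 (202), zip-11 (144) and atf-6 (123), a membrane-bound regulator of ER stress. The remaining 2 were zip-10 and crh-1, the CREB homologue, with 108 and 88.8, both named after their values were seen, and let-607 itself was not among the 6. Nuclear hormone receptors had 11 of 274 (4.01%), led by nhr-35 (233), nhr-49, nhr-256 (136) and nhr-57 (113), which is near the 3.96% of all genes. Of the 12 GATA factor genes only elt-2, the intestinal regulator, had one, with a signal of 107. No homeobox gene (0 of 93, which allows up to 3.23%) and no Rab or Arl GTPase gene (0 of 33, up to 9.09%) had one, though 3 of the homeobox and 6 of the GTPase genes had a shared peak. With a window of 500 bp upstream 1 homeobox gene had a single-gene promoter peak, and without replicate 2 so did 1 GTPase gene.

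Intestine was the tissue whose markers had peaks, at low signal. Of its 17 markers, 10 (58.8%, 32.9 to 81.6) had a single-gene promoter peak, led by genes of the vitellogenins, the yolk proteins: vit-6 had a signal of 190, vit-2 of 187, vit-5 of 160 and vit-3 of 156. Some of these genes are near-identical in part, so that reads may be shared among them. The vitellogenin genes were 6 of the 10, and 4 of the 11 other markers had a peak. The median nuclear rank of the 10 was 1527 of 2349, against 286.5 for the 14 ER folding genes. In the stronger 50% of the IDR list, 4 of the markers kept a peak. TGACGT was at 1 of the 10 summits. No marker of neurons, body wall muscle, hypodermis or germline had one, 0 of 10 each, which allows up to 30% of such genes.

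Among large families, chemoreceptor genes, cuticle collagens and C-type lectins with lysozymes had shares whose intervals lay below the 3.96% of all genes. Chemoreceptor-type GPCR genes had 3 of 1365 (0.220%, 0.0453 to 0.641), sre-23 (151), srv-1 (143) and srz-62 (118). Cuticle collagens had 1 of 175 (0.571%, 0.0145 to 3.14), col-63 (103), and C-type lectins and lysozymes 5 of 327 (1.53%, 0.498 to 3.53), led by clec-53 (299), clec-150 (236), ilys-5 (135) and lys-8 (86.3). The col-63 summit lay 642 bp upstream of that gene, inside a noncoding exon of the homeobox gene ceh-8. For the next 3 lists the interval held the share of all genes. Neuropeptides and insulins had 3 of 145 (2.07%, 0.429 to 5.93), ins-39 (294), nlp-36 (93.6) and nlp-40 (78.9). Xenobiotic enzymes had 7 of 185 (3.78%, 1.53 to 7.64), led by ugt-49 (375), gst-1 (264), ugt-50 (156) and gst-27 (131). Histones had 2 of 81 (2.47%, 0.300 to 8.64), his-37 (458) and his-72 (84.9). Histone genes and some vitellogenin genes have near-identical copies, where the authors' read mapping could split or drop reads. How reads were mapped within the other families is not known from the sources used here. Of the 791 genes, 133 were on any of the 29 lists, and 242 carried a sequence name only.

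**Figure D5:**
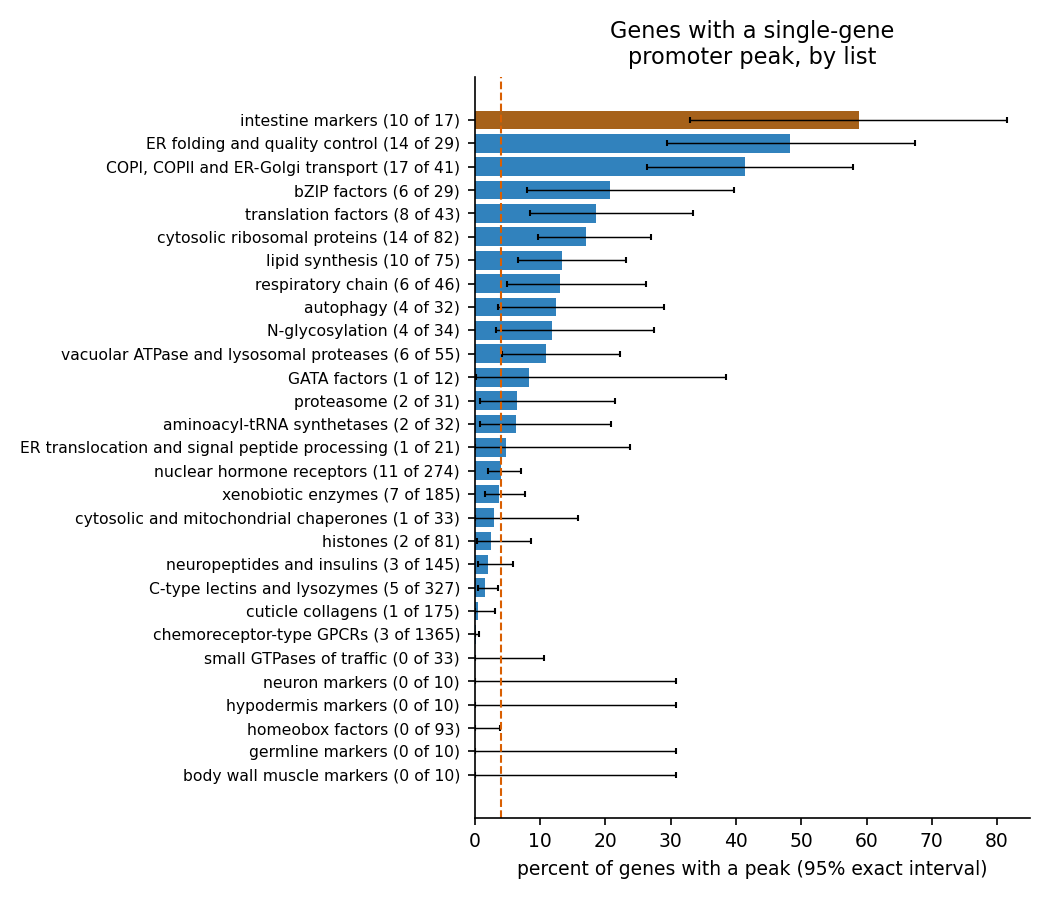
Percent of the genes of each of the 29 lists that had a single-gene promoter peak, with exact 95% intervals and the counts beside the names; brown marks tissue marker lists, and the dashed line is the 3.96% of all nuclear protein-coding genes. Intestine markers, ER folding and ER-Golgi transport stand highest, and chemoreceptor genes and cuticle collagens lie below the line.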

How the data were processed

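LET-607 was immunoprecipitated through its GFP tag in 2 biological replicates of 1 group, numbered per the labels. The deposited files are narrowPeak lists from the authors on 2 genome builds, of which ce11 was used: relaxed peaks of replicate 1 (26463), of replicate 2 (22592) and of the pooled data (26789), and the optimal IDR list (2372 peaks). The deposited signal per peak has no stated scale and was used to describe and rank peaks within a list. No source used here names the aligner or the peak caller. Genes came from Ensembl release 115 (WBcel235), and products and sequence from RefSeq of the same build. Coordinates are 1-based.

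The members and lists, the 13 sequences, the tests and the settings tried were chosen with earlier results of these data known. Strings were searched on both strands within 50 bp of the summit and compared with flanks of equal length centred 300 bp away by two-sided exact binomial tests of discordant peaks. Peak classes were compared by two-sided Fisher's exact tests, with Benjamini-Hochberg adjustment at 0.05 in each family. A string that overlaps another shares its occurrences. The string tests were checked on simulated sequence with the same base composition throughout. That check does not cover the higher share of G or C in the real summit windows. Intervals are exact Clopper-Pearson at 95%, an observed 0 was given a limit of 3 counts, and both cover counting error only.

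Genes were named for the 20 strongest peaks, for up to 4 genes of highest signal on each list, at the window edges and at the lowest signal; others are marked as chosen after their values were seen. Alternatives were other windows, tRNA margins, flanks and overlap rules, the stronger 50% of the IDR list, merged summits, all transcript 5′ ends, and either replicate alone (its top 2372 relaxed peaks). Calculations ran in Python 3.11.15 (scipy 1.17.1, numpy 2.4.6, pandas 2.3.3); plots were made by matplotlib 3.10.9.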

Additional observations from a re-analysis of the deposited data

How the results depend on the processing

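No paired analysis was possible because there was 1 group. Of 180 values of main results recomputed under 15 other settings, 148 kept their direction and their side of the threshold, or stayed within their range, and 8 turned direction, none of them past the threshold in either setting. With the stronger 50% of the IDR list, 420 peaks at 413 genes remained in the class, 143 6-mers were higher and 83 lower, 98.8% of peaks had support from both replicates and the median summit lay at -255.5 bp (negative is upstream). It lay at -170 bp with a window of 500 bp and at -356 bp with one of 2000 bp. Within 25 bp of summits, 136 6-mers were higher and 76 lower. Replicate support was 59.7% with a 50% reciprocal overlap and 67.6% with summits within 100 bp.

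The lower share of single-gene promoter peaks among the strongest 25% passed with a window of 500 bp (odds ratio 0.649) or 2000 bp (0.641), with tRNA summits kept (0.663), with a tRNA margin of 500 bp (0.706) and without replicate 1, but not without replicate 2 (0.663 to 0.703). GACGTG against peaks outside windows did not pass with a window of 2000 bp (1.21), the stronger 50% of the list (1.70), 100 bp around summits (1.31), or without either replicate (1.42 to 1.54). TGACGT in that comparison passed within 25 bp of summits (1.93), and the share on X passed with tRNA summits kept (0.723). The 2000 bp window turned TGACGT (odds ratio 0.891) and GACGTG (0.757) against multi-gene peaks, and the strongest 25% (0.953) and replicate support (0.892) against peaks outside windows. Replicate support also turned with all transcript 5′ ends (0.978) and, against multi-gene peaks, with 50% reciprocal overlap (1.07). The share on X turned in the stronger 50% (1.05), and the odds ratio of exon summits was 0.954 to 1.02 with 1 replicate left out. GTAAACA, which did not pass, turned below its flanks within 25 bp of summits (0.488%) and without replicate 1 (1.24% to 1.80% with 1 replicate left out). TGATAA did not pass in the stronger 50% of the list, at 12.9% against 9.76% of flanks, or within 25 bp of summits (7.57% against 5.01%). TATAAA did not pass within 25 bp of summits (3.17% against 4.95%). Replicate support could not be computed with a replicate left out. The cause of these changes was not tested. With no read counts, the depth behind weak peaks is unknown.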
